A study of Mus musculus with 7 samples.

Results

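Matrix proteases and their inhibitors are described here in C2C12 cells, an established line of mouse myoblasts. The members are the table rows with a gene name of the families Mmp, Timp, Adam, Adamts or Adamtsl followed by a number, which gave 37 of 13376 rows. They comprised 8 MMP, 3 TIMP, 11 ADAM, 11 ADAMTS and 4 ADAMTSL rows. RefSeq names 85 mouse genes of these families, and the other 48, among them Mmp9 and Timp4, are not analysed here. The knockdown groups were proliferating C2C12 cells treated with si-scr, the scrambled siRNA (labelled as control), and with si-lnc-31 (labelled as lnc31 knockdown), with 2 libraries each and no stated treatment time. In the pull-down, biotinylated antisense probes, either the specific set called ODD against lnc-31 or an aspecific set against lacZ, recovered RNA from C2C12 cells, with 1 library each. All libraries came from this 1 cell line. Nothing in the labels says whether the 2 libraries of a group are separate cultures. The p-values therefore reflect only how far these libraries differ, which may be technical.

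Matrix metalloproteinases (MMPs) are zinc enzymes that cut collagens and other matrix proteins, either secreted or held at the cell membrane. ADAMs are membrane-anchored relatives, several of which release growth factors, Notch and adhesion proteins from the cell surface. ADAMTS enzymes are secreted and cut proteoglycans and procollagens, and the ADAMTS-like proteins share their binding domains but have no catalytic domain. TIMPs bind the active site of these enzymes and block it. In muscle, these proteins act in matrix turnover during myoblast migration, fusion and repair.

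Values are FPKM, which divide fragment numbers by transcript length and library size, so levels may be compared between genes. The summed FPKM of a library still ran from 1515600 to 2466050, and the main fit applied no further scaling. Sequencing depth is unknown. Pearson's correlation across tested genes, which are not independent replicates, on the log2 scale was 0.968 within the scrambled siRNA group and 0.951 within the other. On the first principal component lnc-31 siRNA 1 (score 39.1) stood apart from the other 3 libraries (-16.3 to -10.4), so results are given below with each library left out. The row that carries Mir31, at the lnc-31 locus, stood at 13.4 and 15.6 FPKM with scrambled siRNA and at 12.1 and 14.1 with lnc-31 siRNA. The difference did not pass (log2 fold change -0.14, 95% interval -0.39 to 0.10, limma, adjusted p = 0.38), so a knockdown was not established by this row. Directions below are those of the libraries labelled lnc-31 siRNA. Of 14 muscle differentiation markers, 13 had a row, Mymk being not analysed here. All 13 rose, their summed level going from 573 and 621 FPKM to 860 and 885, and their part in the results below was not tested. Of the defining markers of macrophages (7 genes), endothelial cells (5) and adipocytes (5), only Cd68 (1.14 to 1.65 FPKM) and Pparg (9.47 to 11.4 FPKM) had a row.

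Timp1 and Timp2 were the most abundant members, while Timp3 lay below Mmp14, Adam9, Mmp2 and Adam10. Together the 3 TIMP rows made up 54.9% of the summed FPKM of the member rows in each scrambled siRNA library, and 48.7% and 49.6% in the lnc-31 siRNA libraries. The 8 MMPs made up 20.7% and 20.9%, then 25.4% and 24.7%. The row Adam1a,Mapkapk5 was left out of these sums because it merges a member with a kinase gene. Among the other families, 10 ADAM rows made up 17.8% to 19.1%, ADAMTS 4.40% to 5.43% and ADAMTSL 1.45% to 2.24%. The summed TIMP level divided by the summed MMP level was 2.65 and 2.63 with scrambled siRNA and 1.92 and 2.01 with lnc-31 siRNA. These shares describe the 4 libraries and were not tested.

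**Figure D1:**
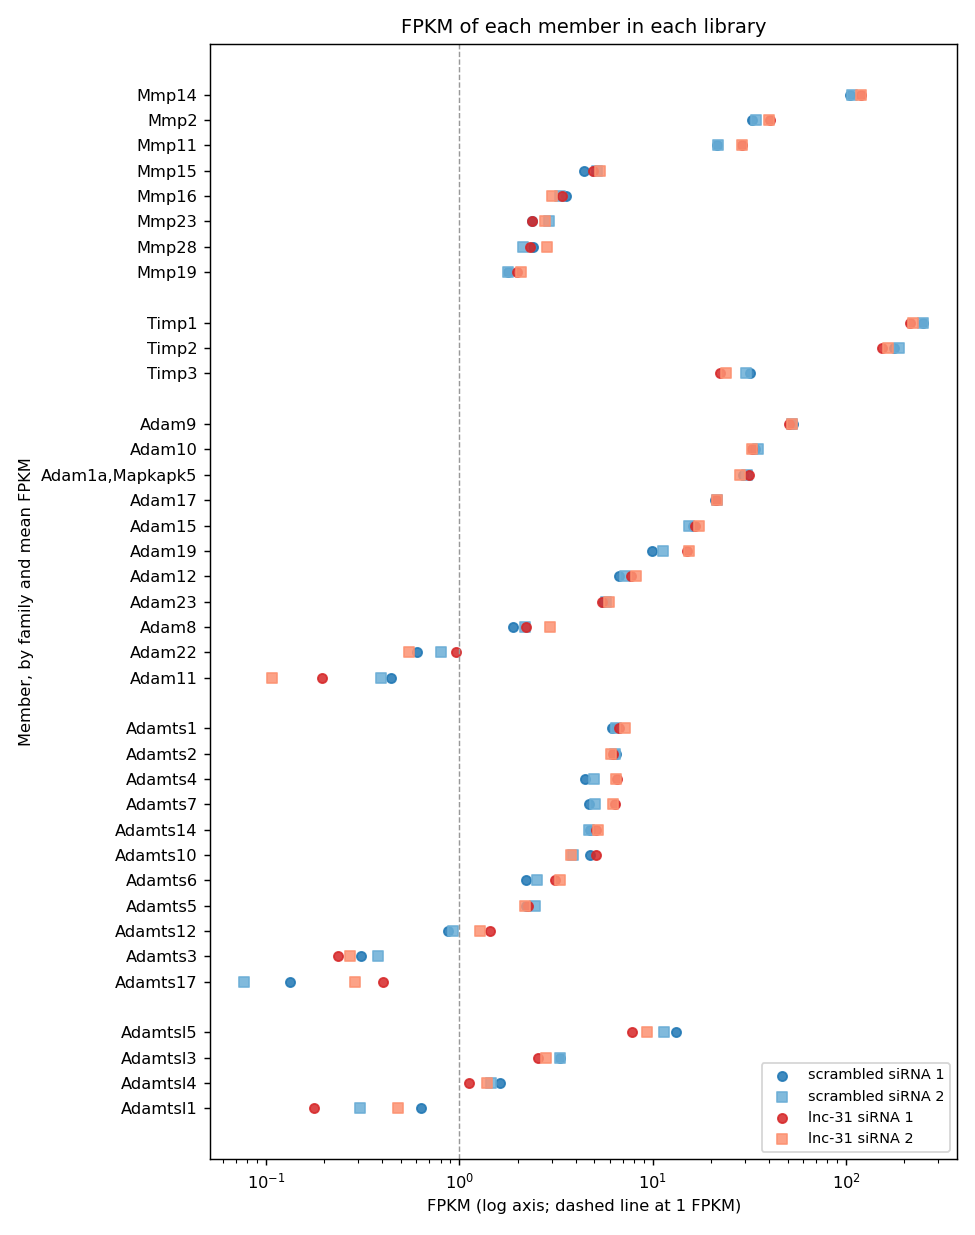
FPKM (log axis) of each of the 37 member rows in the 4 libraries, grouped by family and ordered by mean level; the dashed line marks 1 FPKM. Timp1, Timp2 and Mmp14 lie above 100 FPKM in every library, and 5 rows have a mean below 1 FPKM.

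With lnc-31 siRNA, 5 proteases rose (Mmp2, Mmp11, Adam19, Adamts4 and Adamts7) and 3 genes fell (the inhibitors Timp1 and Timp3, and the ADAMTS-like gene Adamtsl5). Of the 37 members, 32 had a mean of 1 FPKM or more and were tested with limma on log2(FPKM + 1), and 24 of these did not pass an adjusted p of 0.05. Over all 11500 tested genes 12.4% were called, 5.64% higher and 6.78% lower, against 15.6% and 9.38% of the tested members. Omitting scrambled siRNA 1 left Mmp11 as the 1 member called higher, with 0 called lower, and omitting scrambled siRNA 2 left Mmp11 and Adam19, again with 0 lower. Omitting lnc-31 siRNA 1 left Mmp11 higher and Timp3 lower, and omitting lnc-31 siRNA 2 left Mmp11 higher and Timp3 and Adamtsl5 lower. Calls over all tested genes also became fewer, in both directions, in each fit without a library. With a constant prior variance Timp3 was the 1 member called lower. Over all tested genes that setting called 510 higher and 570 lower, against 649 and 780 in the main fit. The median log2 fold change of the tested members was 0.06, and -0.01 over all tested genes. Both lnc-31 siRNA libraries lay above both scrambled siRNA libraries for 14 of the 32 (28.5% of all tested genes) and below them for 9 (31.7%). Adamts12, at a mean of 1.13 FPKM, was the member just above the filter, and it passed only through the lnc-31 siRNA libraries. Adam22, at 0.729, was the one just below it. In bulk RNA, a change in the number of cells that make a message and a change in the amount per cell cannot be told apart.

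**Figure D2:**
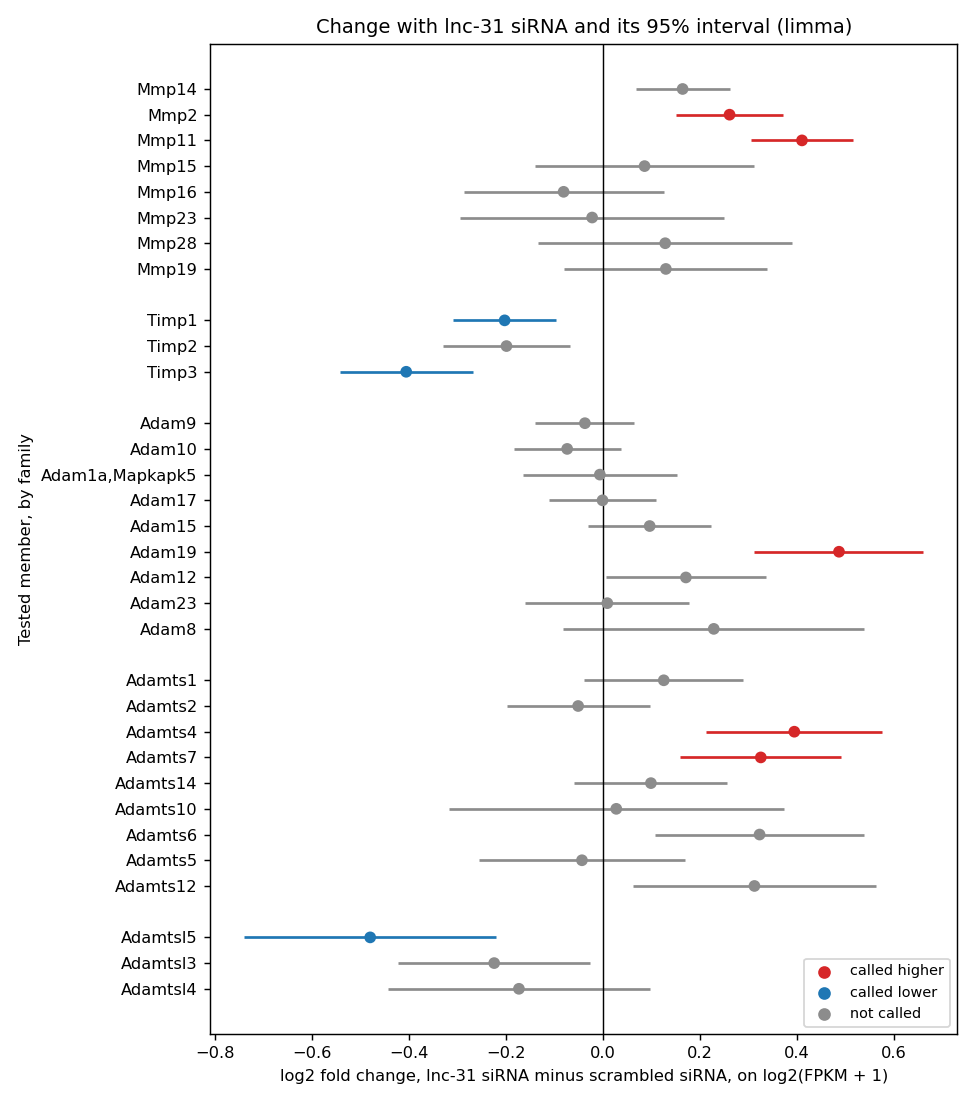
The log2 fold change of each tested member, lnc-31 siRNA minus scrambled siRNA, on log2(FPKM + 1), with its 95% interval from limma; red members were called higher, blue lower and grey were not called. The 3 TIMPs and the 3 tested ADAMTS-like genes all lie left of 0, with 2 and 1 of them called.

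Among the inhibitors, Timp3 fell most. It binds to the matrix and is known to inhibit ADAM and ADAMTS enzymes as well as MMPs. Timp3 (chr10:86300412-86349505, mm10) stood at 31.7 and 30.3 FPKM with scrambled siRNA and at 22.3 and 24.0 with lnc-31 siRNA. Both lnc-31 siRNA libraries lay well below both others (log2 fold change -0.41, SE 0.055, limma, adjusted p = 0.014). The call was lost without scrambled siRNA 1 (adjusted p = 0.075) or scrambled siRNA 2 (0.061). It was held without lnc-31 siRNA 1 (0.049) or lnc-31 siRNA 2 (0.033).

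Timp1 (chrX:20870166-20874737, mm10), a secreted inhibitor of many MMPs, was the most abundant member. Its levels were 250.9 and 251.7 FPKM with scrambled siRNA and 213 and 223 with lnc-31 siRNA, with no overlap (log2 fold change -0.20, SE 0.043, limma, adjusted p = 0.039). This small fall did not hold with any library left out: omitting either scrambled siRNA library gave adjusted p = 0.15, omitting lnc-31 siRNA 1 gave 0.13 and omitting lnc-31 siRNA 2 gave 0.081. A constant prior variance also ended it (adjusted p = 0.075). Timp2, which both inhibits Mmp2 and takes part in its activation at the membrane, stood at 178 and 188 FPKM, then at 154 and 165. The groups did not overlap, and the difference was about the size of that of Timp1 (log2 fold change -0.20, 95% interval -0.33 to -0.07), but it did not pass (limma, adjusted p = 0.067). Timp2 was called lower under quantile normalization (0.029) and under median of ratios scaling (0.026). It was not called with a constant prior variance (limma, adjusted p = 0.11) or with no filter (0.077). Nor was it called with any library left out, where its log2 fold change was -0.25 to -0.15.

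Of the 8 MMPs, 2 rose and none fell. Mmp11, or stromelysin 3, is a secreted enzyme that leaves the cell in active form. Its gene (chr10:75923221-75932502, mm10) stood at 21.4 and 21.7 FPKM with scrambled siRNA and at 28.9 and 29.1 with lnc-31 siRNA. Libraries of a group were nearly equal and the groups far apart (log2 fold change 0.41, SE 0.042, limma, adjusted p = 0.0080). Of the 8 called members, Mmp11 was the one whose call held with each library left out (adjusted p 0.034 to 0.048) and under every other setting tried.

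Mmp2, gelatinase A (chr8:92827290-92853421, mm10), cuts basement membrane collagen. It went from 32.5 and 34.1 FPKM to 40.2 and 39.98 (log2 fold change 0.26, SE 0.045, limma, adjusted p = 0.024). The groups did not overlap, and the call was lost when either scrambled siRNA library was omitted (adjusted p = 0.11 without library 1 and 0.076 without library 2) or either lnc-31 siRNA library (0.085 and 0.082). Mmp14, the membrane-type enzyme that activates the Mmp2 proenzyme, was the most abundant protease, at 105 and 108 FPKM, then at 119 and 119.95. Its groups did not overlap either, but the difference just missed the threshold (log2 fold change 0.16, 95% interval 0.07 to 0.26, limma, adjusted p = 0.051). It was called under quantile normalization (adjusted p = 0.022), median of ratios scaling (0.023), pseudocounts of 0.1 (0.049) and 0.5 (0.0498), and with a mean of 5 FPKM or more (0.043). It was not called with a constant prior variance (limma, adjusted p = 0.10) or with no filter (0.056). Nor was it called with any library left out, where its log2 fold change was 0.15 to 0.18.

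The other MMPs were at 1.78 to 5.36 FPKM in every library and did not pass. They were the membrane-type enzymes Mmp15 and Mmp16, and Mmp19, Mmp23 and Mmp28. Their log2 fold changes ran from -0.08 (Mmp16) to 0.13 (Mmp19), and the intervals were wide (95% interval of Mmp23 -0.29 to 0.25). Only Mmp19 had groups that did not overlap, at 1.78 in both scrambled siRNA libraries and at 1.999 and 2.08 with lnc-31 siRNA.

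**Figure D3:**
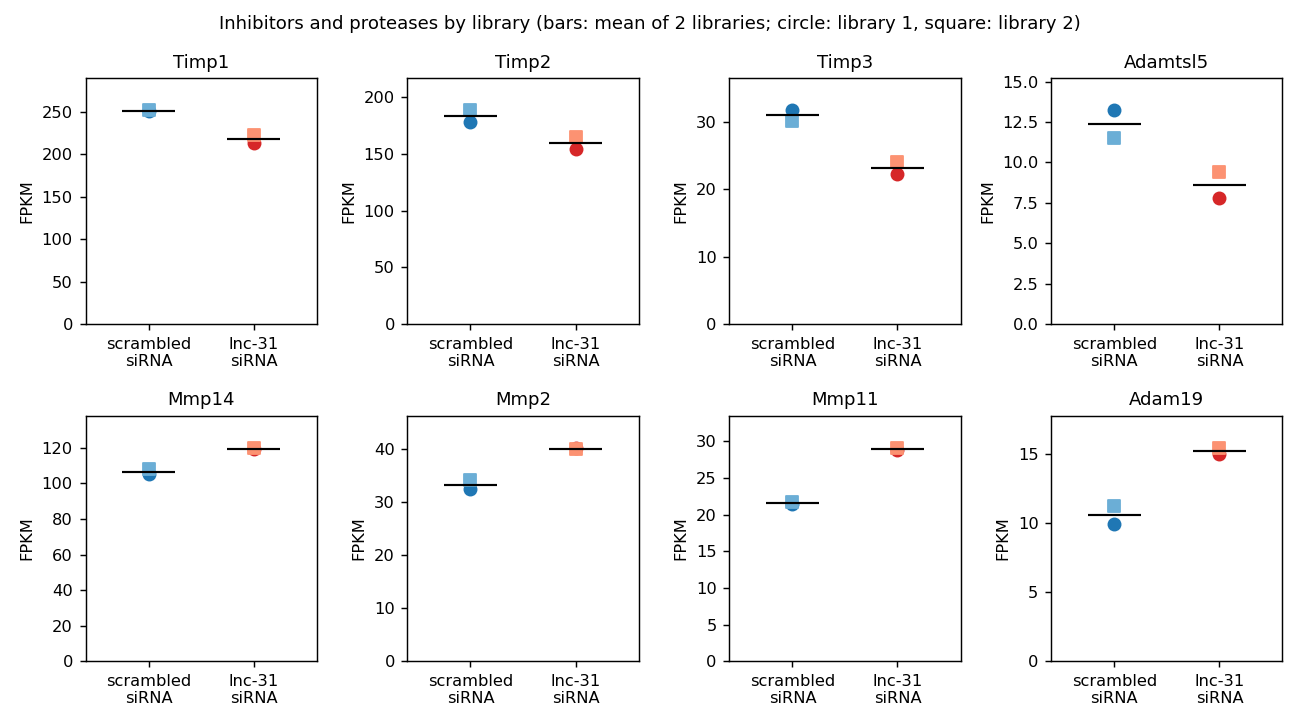
FPKM (axes from 0) of the 3 TIMPs, Adamtsl5, Mmp14, Mmp2, Mmp11 and Adam19 in each library, with bars at the mean of the 2 libraries of a group. In all 8 panels the groups do not overlap, as was also so for 28.5% (higher) and 31.7% (lower) of all tested genes. The upper row is lower with lnc-31 siRNA and the lower row higher, and Timp2 and Mmp14 did not pass the test.

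Of the 11 ADAM rows, 9 were tested and 1 rose. Adam19, or meltrin beta (chr11:46054502-46147347, mm10), is a membrane protease known to process neuregulin. It stood at 9.95 and 11.3 FPKM with scrambled siRNA and at 15.01 and 15.5 with lnc-31 siRNA. All values of one group lay above the other, and on the log2(FPKM + 1) scale this was the largest rise among the called members (log2 fold change 0.49, SE 0.070, limma, adjusted p = 0.017). The call held without scrambled siRNA 2 (adjusted p = 0.040). It was lost without scrambled siRNA 1 (0.063) and without either lnc-31 siRNA library (0.052 without library 1 and 0.064 without library 2). Adam12, meltrin alpha, known for a role in muscle cell fusion, had values of 6.68 and 7.20 FPKM, then 7.70 and 8.17. These did not overlap, but the difference did not pass (log2 fold change 0.17, 95% interval 0.01 to 0.34, limma, adjusted p = 0.15).

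The general sheddases were near the same level in all libraries. Adam17, which releases TNF and EGF receptor ligands, stood at 21.1 and 21.5 FPKM, then at 21.2 and 21.4 (log2 fold change -0.00090, 95% interval -0.11 to 0.11). Adam10, which cuts Notch, stood at 33.7 and 35.2, then at 32.8 and 32.6 (log2 fold change -0.07, interval -0.18 to 0.04). Adam9 was the most abundant ADAM, at 53.2 and 52.8 FPKM and then 50.7 and 52.6 (log2 fold change -0.04, interval -0.14 to 0.06). Of these, the groups overlapped for Adam17 only. The intervals leave out changes as large as that of Adam19. Adam15 and Adam8 had log2 fold changes of 0.10 and 0.23 (limma, adjusted p = 0.27 and 0.28). Adam23, which has no protease activity, and the merged row of Adam1a were within 0.01 of 0.

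Of the 11 ADAMTS rows, 9 were tested and 2 rose. Adamts4, an aggrecanase that also cuts versican (chr1:171250129-171262267, mm10), went from 4.45 and 4.98 FPKM to 6.51 and 6.50 (log2 fold change 0.39, SE 0.073, limma, adjusted p = 0.028). Adamts7, which cuts cartilage oligomeric matrix protein (chr9:90162904-90200102, mm10), went from 4.68 and 5.02 to 6.42 and 6.24 (log2 fold change 0.33, SE 0.067, limma, adjusted p = 0.036). Neither gene had overlapping groups, and neither call held with any library left out. For Adamts4 the adjusted p was 0.10 without library 1 of the scrambled siRNA group and 0.065 without its library 2, and 0.097 and 0.10 without libraries 1 and 2 of the lnc-31 siRNA group. For Adamts7, taken in that order, the values were 0.13, 0.089, 0.13 and 0.11.

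Adamts6 and Adamts12 were expressed at lower levels than Adamts7. Adamts6 stood at 2.22 and 2.52 FPKM, then at 3.11 and 3.31 (log2 fold change 0.32, limma, adjusted p = 0.068). Adamts12 stood at 0.877 and 0.926, then at 1.45 and 1.28 (log2 fold change 0.31, limma, adjusted p = 0.10). Neither passed, although median of ratios scaling called Adamts6 higher (0.046) and a constant prior variance Adamts12 (0.045). The procollagen N-proteinases Adamts2 (log2 fold change -0.05) and Adamts14 (0.10), the versican-cutting Adamts5 (-0.04) and Adamts1 (0.13), and Adamts10 (0.03) did not pass either. Of these, Adamts1 and Adamts2 were the most abundant ADAMTS members. Adamts1 stood at 6.14 and 6.47 FPKM, then at 6.73 and 7.20, and Adamts2 at 6.44 and 6.37, then at 6.21 and 6.09.

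The ADAMTS-like genes had negative differences in all 3 tested rows, and 1 fell. Adamtsl5 (chr10:80339793-80349030, mm10) stood at 13.2 and 11.5 FPKM with scrambled siRNA and at 7.80 and 9.40 with lnc-31 siRNA. There was no overlap, although the libraries of each group were further apart, relative to their mean, than for the other called members (log2 fold change -0.48, SE 0.10, limma, adjusted p = 0.041). This call held without lnc-31 siRNA 2 (adjusted p = 0.047). It was lost without scrambled siRNA library 1 (0.15) or 2 (0.083) or lnc-31 siRNA 1 (0.11), with a constant prior variance (0.062) and with no filter (0.052). Adamtsl3 stood at 3.31 and 3.30, then at 2.55 and 2.82 (log2 fold change -0.22, limma, adjusted p = 0.13). For Adamtsl4 the difference was -0.17 on the log2 scale (adjusted p = 0.34).

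The 5 untested rows had means of 0.225 to 0.729 FPKM. Adam11, a member without protease activity, stood at 0.444 and 0.394 with scrambled siRNA and at 0.194 and 0.108 with lnc-31 siRNA. Adamts17 stood at 0.133 and 0.0774, then at 0.403 and 0.288. Their groups did not overlap, but with no filter neither passed (limma, adjusted p = 0.11 and 0.14). Adamts3 lay at 0.237 to 0.380 FPKM, Adam22 at 0.549 to 0.958 and Adamtsl1 at 0.176 to 0.634.

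**Figure D4:**
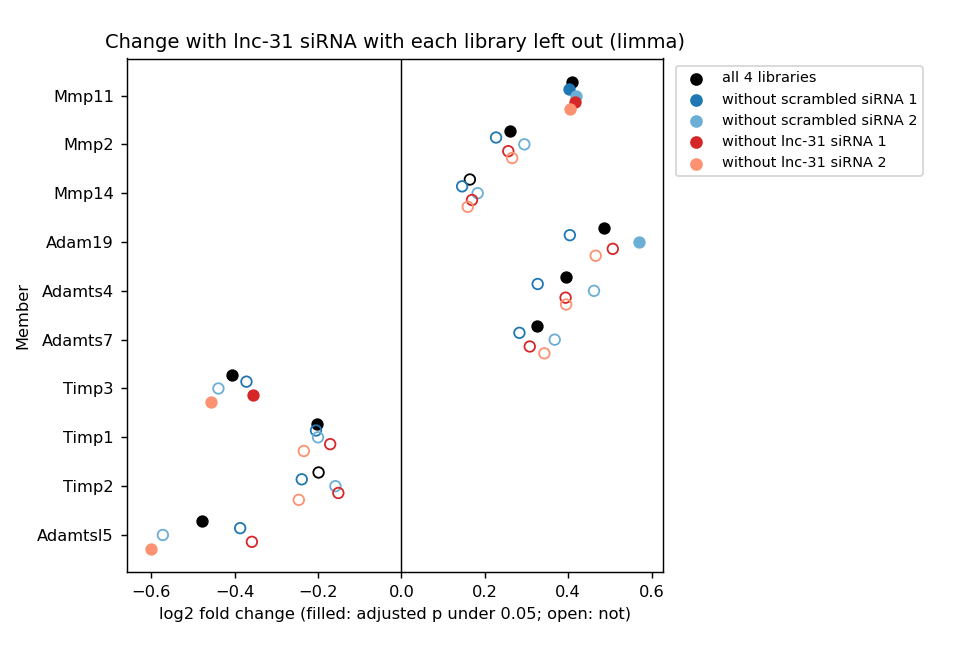
The log2 fold change of the 8 called members and of Mmp14 and Timp2 with all 4 libraries (black) and with each library left out; filled points have an adjusted p under 0.05 by limma. Every point of a gene lies on the same side of 0, and Mmp11 is the gene with 5 filled points.

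Promoter sequence is shown for 4 called members, to set genes that fell beside genes that rose. RefSeq windows of 300 bases, from 250 before to 50 after a transcript start (GRCm38.p6), were at hand for 25 of the 37 members (28 windows) and 5 of the 8 called. The called members without one were Mmp2, Adamts4 and Adamts7. Both strands were searched for the AP-1 motif TGANTCA, the E-box CAGCTG, a form that MyoD binds, and the GC box GGGCGG. No 2 of these motifs can match the same bases in full. Below are the 150 bases before the start, 5′ to 3′ on the gene's strand, with motif matches on either strand in capitals. They are Timp1 at chrX:20870016-20870165 (plus strand), Timp3 at chr10:86300262-86300411 (plus), Mmp11 at chr10:75932503-75932652 (minus) and the second of 3 Adam19 starts at chr11:46055834-46055983 (plus).
Timp1: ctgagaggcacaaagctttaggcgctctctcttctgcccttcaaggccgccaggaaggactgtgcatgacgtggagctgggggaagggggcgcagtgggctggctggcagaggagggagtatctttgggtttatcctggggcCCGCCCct
Timp3: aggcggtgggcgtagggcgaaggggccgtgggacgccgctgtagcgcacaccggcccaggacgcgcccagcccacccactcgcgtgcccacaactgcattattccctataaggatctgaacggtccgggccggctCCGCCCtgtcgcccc
Mmp11: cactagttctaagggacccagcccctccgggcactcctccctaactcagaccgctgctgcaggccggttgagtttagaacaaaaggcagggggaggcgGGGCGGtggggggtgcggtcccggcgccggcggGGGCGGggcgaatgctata
Adam19: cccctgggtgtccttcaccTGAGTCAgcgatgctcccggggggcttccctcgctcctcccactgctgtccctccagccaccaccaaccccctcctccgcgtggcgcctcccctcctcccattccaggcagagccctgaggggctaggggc

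The GC box stood in windows of Timp1, Timp3 and Adamtsl5, which fell, and of Mmp11 and Adam19, which rose. The match of Adam19 ends after a transcript start, so it is not complete in the bases shown. The motif was in 20 of the 28 member windows (71.4%), in 62.2% of the windows of genes in the table and in 35.7% of all 32851 windows. TGANTCA was in 1 member window (3.57%), that of Adam19, against 5.23% of the windows of table genes and 7.81% of all. CAGCTG was in 7 of the 28 member windows against 15.7% and 16.3%, among them Timp2, Adamtsl5 and another start of Adam19. A match is a description of the letters and not a site.

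Other genes of extracellular proteolysis were taken from 3 lists, which were chosen with earlier results of these data known. In a list of 45 pericellular proteases, their inhibitors and activators, 26 were tested, 7 rose and none fell by limma. At an unadjusted p under 0.05 there were 8, including 1 lower. The calls higher were 26.9% of the tested list, while over all tested genes 5.64% were higher and 6.78% lower. Those that rose included the proteases Plau (urokinase), Plat, Ctsl and Htra3. Ctsl, cathepsin L, went from 287 and 297 FPKM to 356 and 359 (log2 fold change 0.29, limma, adjusted p = 0.017). Plau went from 63.6 and 69.2 to 82.2 and 82.0 (log2 fold change 0.30, adjusted p = 0.023). The serpin genes Serpine2, an inhibitor of thrombin and plasminogen activators (0.38, adjusted p = 0.017), and Serpinh1 (0.35, 0.018) and Serpinf1 also rose. The last 2 do not inhibit proteases: Serpinh1 encodes a collagen chaperone and Serpinf1 a secreted neurotrophic factor. Calls higher in this list numbered 0 and 1 when libraries 1 and 2 of the scrambled siRNA group were omitted, and 2 and 0 when those of the lnc-31 siRNA group were. The list's median log2 fold change was 0.07.

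The list of sheddase partners and substrates had 25 tested genes, of which 4 rose and 2 fell (median log2 fold change 0.07). These calls were 16% higher and 8% lower, beside 5.64% and 6.78% of all tested genes. Hbegf, an EGF receptor ligand that Adam17 releases, went from 7.22 and 7.40 FPKM to 3.79 and 4.49 (log2 fold change -0.70, limma, adjusted p = 0.011). Btc, another ligand of the EGF receptor, went from 6.31 and 6.32 to 4.38 and 4.62 (-0.41, limma, adjusted p = 0.019). Both lnc-31 siRNA libraries were below both scrambled siRNA libraries for Hbegf and for Btc. Ereg (log2 fold change 0.14, limma, adjusted p = 0.14) and Areg (-0.15, adjusted p = 0.26), ligands of the same receptor, did not pass. Notch1 rose by 0.37 on the log2 scale (limma, adjusted p = 0.020) and Rhbdf2, the rhomboid-like partner of Adam17, by 0.46. The cadherin Cdh15, which is also among the muscle markers above, rose by 0.25. The merged row of Gm28045 and the prion genes Prnd and Prnp rose by 0.35. With each library left out in the order above, 0, 0, 1 and 1 rose and 0, 0, 1 and 1 fell.

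Among 28 matrix proteins that these enzymes cut or bind, 20 were tested, 12 rose and none fell by limma (13 at an unadjusted p under 0.05). The median log2 fold change of the tested genes was 0.20. The calls higher were 60% of those tested, while over all tested genes 5.64% were higher and 6.78% lower. The 12 were Postn, Dcn, Col3a1, Lamc1, Fbn1, Thbs2, Thbs1, Col1a1, Tnc, Vcan, Nid1 and Col5a1. Col3a1, a fibrillar collagen, went from 415 and 433 FPKM to 554 and 545 (log2 fold change 0.37, limma, adjusted p = 0.011), and the laminin chain Lamc1 from 28.8 and 28.0 to 37.03 and 35.3 (0.34, adjusted p = 0.014). Dcn and Col1a1 also stand in the list of 8 fibroblast markers, of which 5 had a row, 4 were tested and 3 rose. The summed level of those 5 rows was 534 and 546 FPKM with scrambled siRNA and 662 and 636 with lnc-31 siRNA. Most of this sum was Col1a1 itself, at 483 and 494 FPKM, then at 598 and 571. Pdgfra, at 3.14 and 3.29 FPKM and then 3.35 in both libraries, did not pass (limma, adjusted p = 0.72). The part of the fibroblast markers in these results was not tested. Leaving out each library in that order, 2, 2, 3 and 4 matrix genes rose, and with a constant prior variance 7 did.

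**Figure D5:**
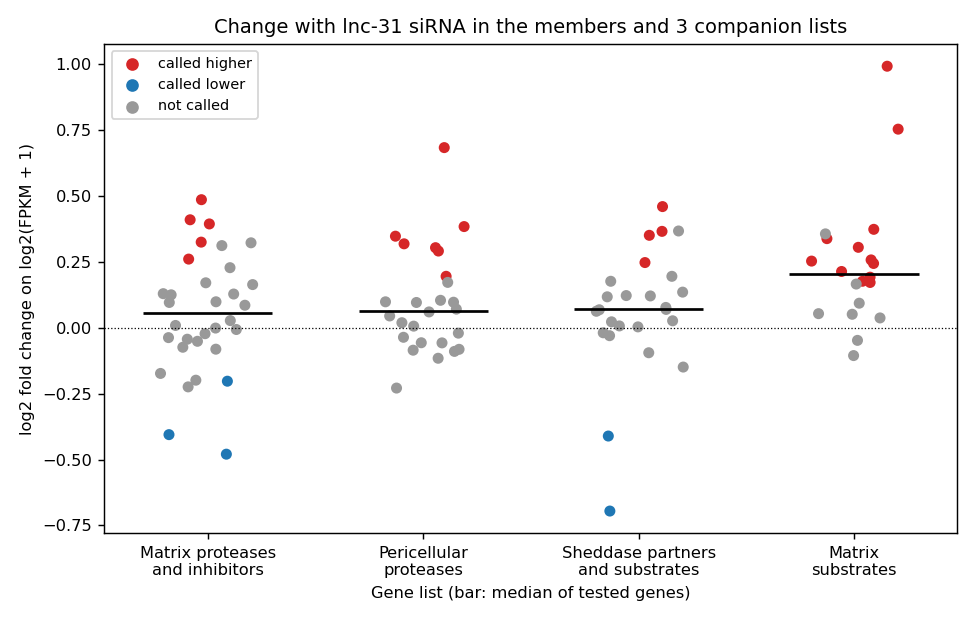
The log2 fold change of each tested gene in the members and the 3 companion lists (32, 26, 25 and 20 genes, points spread sideways for legibility), with bars at the medians of 0.06, 0.07, 0.07 and 0.20. Genes called lower stand in the member and sheddase lists only.

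In the pull-down, 1 member held a peak with the lnc-31 probes and another held one with the lacZ probes. With 1 library per probe set there is no replicate check. Adam9 (chr8:24949611-25017040, mm10) held a lnc-31 probe peak of 400 bases at chr8:25008401-25008800, which lies 8240 bases inside the high-coordinate end of the gene body. It overlapped no lacZ peak, the nearest being 6931.8 kb away. The value deposited with it, read as the authors' p, was 2.19e-05, at rank 73 from the smallest of the 596 lnc-31 probe peaks, and 32.7% of them were as wide or wider. Timp3 held a lacZ probe peak of 200 bases, the narrowest width, at chr10:86304801-86305000, 4389 bases after its start. The value read as the authors' p was 0.00021, at rank 4 from the smallest of the 476 lacZ peaks, and no lnc-31 probe peak lay within 1782.0 kb.

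The Timp3 peak also lies within the body of Syn3, and the peak lists carry no usable strand, so the 2 genes cannot be told apart there. Exons were not given, so it is not known whether either peak is exonic. Over 12019 table rows matched to RefSeq, 1.81% held a lnc-31 probe peak and 1.72% a lacZ peak, against 1 of 37 members for each probe set. Adam9, the gene with the lnc-31 probe peak, did not pass the test in the knockdown (limma, adjusted p = 0.59), while Timp3, with the lacZ peak, fell.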

How the data were processed

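For the knockdown the authors deposited FPKM values (stranded mRNA kit, per the labels' protocols) and peak lists for the pull-down (whole-transcriptome amplification kit), both on build mm10. According to the submitters' processing notes, per the labels, FPKM values came from CASAVA, Trimmomatic, Bowtie2, BWA, TopHat2 and Cuffdiff, and the peaks from CASAVA, Trimmomatic, cutadapt, Bowtie2, TopHat2 and Picard, with no order or versions. The sources used here do not give the peak caller. The deposited lists hold an unnamed column 7, taken as a p-value from its range alone. The input library was not analysed here.

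Rows averaging at least 1 FPKM over the 4 libraries were fitted as log2(FPKM + 1) with limma 3.58.1 (R 4.3.3), with a trended prior variance, two-sided, with Benjamini-Hochberg adjustment over all 11500 rows and a threshold of 0.05. Fold changes on this scale understate those of low genes. The fit was also run on simulated data with planted changes, and no call here rests on that run. Lists are described by counts, with no set test. Members and lists were chosen with earlier results of these data known. Values per library are given for called members, members with a peak, the TIMPs and the most abundant members of each family. The merged row of Adam1a was left out of these. Adam12, Adamts6, Adamts12, Adamtsl3, Mmp19, Adam11 and Adamts17 were added after their values were seen. Gene bodies and promoter windows are those of RefSeq (GRCm38.p6, with the same coordinates as mm10); peaks were assigned by an overlap of 1 base or more. Python 3.11.15, pandas 2.3.3 and matplotlib 3.10.9 were used. No sample column lacked a label. The alternatives were other pseudocounts, filters, scalings and prior variance, a block for the replicate number, fits without each library, and other peak rules.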

Additional observations from a re-analysis of the deposited data

How the results depend on the processing

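With 1 library left out, the members called higher numbered 1 to 2 and those called lower 0 to 2, while over all genes 132 to 266 were called higher and 97 to 242 lower. In the same fits 0 to 2 of the pericellular protease list rose, 0 to 1 of the sheddase list rose and 0 to 1 fell, and 2 to 4 of the matrix substrates rose. The lone library of a group is then assumed to vary like the others. With a constant prior variance 1 member was called lower and 7 matrix substrates rose. In the protease list 1 gene, Prss23, was called lower with a mean of 5 FPKM or more, under quantile normalization, under median of ratios scaling and with the replicate number as a block. Same-numbered libraries did not deviate together (correlation -0.09 across genes), so the numbers were not taken as pairs. With the replicate block 5 members were called higher and 3 lower, and calls moved for Adamts7 (adjusted p = 0.051), Adamtsl5 (0.062), Mmp14 (0.038) and Timp2 (0.026). The sign differed from that in the report under some setting for 7 of 32 tested members, all of them not called, with changes of at most 0.09 on the log2 scale in the report. The other pseudocounts, filters and scalings left 5 to 7 members higher and 2 to 4 lower. The peak counts were the same under the 4 other rules tried for each probe set. Quantile normalization and median of ratios scaling shifted the median of all genes by under 0.01. Over all genes they called 947 and 961 higher and 981 and 972 lower, against 649 and 780 in the main fit. Depth is unknown, so the spread of 2 libraries per group limits every difference.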
